A study of Mus musculus with 6 samples.

Results

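The ID inhibitors and E protein factors are a small group of helix-loop-helix regulators, taken here as 7 named genes: the inhibitor genes Id1, Id2 and Id3, the E protein genes Tcf3 (which encodes E2A), Tcf12 (HEB) and Tcf4 (E2-2), and Bhlhe40. Each was found by its symbol in the deposited count table, 7 of 14777 genes, and all 7 passed the filter on low counts. The 6 RNA libraries are from mouse (C57BL/6) regulatory T cells, Treg, that had been induced in vitro from naive CD4 cells. Of these, 3 carried full-length FOXP3 (labelled FOXP3 FL, here FL) and 3 carried a Foxp3 exon 2 deletion (labelled FOXP3 ΔE2, here ΔE2). FOXP3 is the lineage-defining transcription factor of Treg. Every culture ran for 3 days on human IL-2 (20 ng/ml) and human TGF-beta (5 ng/ml), with antibodies to CD28 and, coated, to CD3 at 1 µg/ml each, and the labels give over 90% FOXP3-positive cells. The labels give neither how the deletion was made nor the animal or culture behind each replicate, so a p-value here reflects only how far these 6 libraries scatter, which may be technical.

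E proteins bind the E-box, a short DNA motif, as dimers and act as transcription factors throughout T cell development. ID proteins have the dimerisation helices but lack the basic region that contacts DNA, so an E protein bound to an ID protein cannot bind its sites. T cell receptor, TGF-beta and BMP signals are known inputs to the ID genes, and in mice Id2 and Id3 are known to maintain Treg. Bhlhe40 is a repressor of another helix-loop-helix class that binds E-boxes itself and is known in T cells for its part in cytokine production.

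Total counts were 13307155 to 16140432 per library. The share of high-quality reads assigned to genes, in the authors' mapping table, was 75.4% and 75.5% in ΔE2 replicates 1 and 2 and 69.3% to 71.5% in the other 4 libraries. Foxp3 RNA stood at 393 ± 54.8 CPM (counts scaled to a common library size with TMM factors; SD, n = 3) in FL and 392 ± 51.7 in ΔE2. That count covers all exons, so it does not check the deletion. T cell and Treg markers were high in each library (12 of 12 genes listed, summed CPM 12587 to 13731 in FL and 13576 to 17242 in ΔE2).

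Promoter windows from RefSeq (GRCm38.p6) were at hand for Id2, Id3, Tcf3 and Tcf12, and are shown because the E-box in them is the motif that the products of these same genes bind or block. Printed below, 5′ to 3′ on the strand of the gene, is the part of a window before the first annotated exon base in that window. The E-box CANNTG is in capitals. For Tcf3 and Tcf12 this part lies upstream of the annotated gene. For Id2 it lies within the annotated gene (chr12:25093799-25097140), outside its exons. The windows are chr12:25096254-25096342 (minus strand) for Id2, chr10:80433648-80433885 (minus strand) for Tcf3 and chr9:72111872-72112069 (minus strand) for Tcf12, of whose 3 windows the most upstream is shown.
Id2: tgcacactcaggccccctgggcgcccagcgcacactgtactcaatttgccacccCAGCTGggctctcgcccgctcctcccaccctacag
Tcf3: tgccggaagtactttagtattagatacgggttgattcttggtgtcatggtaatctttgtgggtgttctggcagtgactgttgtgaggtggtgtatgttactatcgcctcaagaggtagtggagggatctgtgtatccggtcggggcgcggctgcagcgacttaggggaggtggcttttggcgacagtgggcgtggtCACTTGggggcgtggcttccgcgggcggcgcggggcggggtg
Tcf12: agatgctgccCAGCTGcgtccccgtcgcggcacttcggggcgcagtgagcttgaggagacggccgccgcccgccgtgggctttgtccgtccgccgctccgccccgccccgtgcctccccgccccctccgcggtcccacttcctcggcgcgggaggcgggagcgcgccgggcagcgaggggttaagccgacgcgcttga
In the printed parts Id2 and Tcf12 held the form CAGCTG, and Tcf3 held CACTTG. The printed E-box began at -196 in Id2, at -54 in Tcf3 and at -240 in Tcf12, counting the base before the RefSeq start as -1. Of the other Tcf12 windows, that at chr9:72111152-72111451 held CAAGTG and CACTTG, and that at chr9:71896047-71896346 held CATGTG. The Id3 window, which lies wholly within annotated exon, held no CANNTG. Searched on both strands, neither CACGTG, the E-box form that Bhlhe40 binds and one of the forms of CANNTG, nor the EGR motif GCGNGGGCG was found in the windows of these 4 genes. Over all 32851 RefSeq windows of 300 bases, 72.3% held CANNTG, 7.15% held CACGTG and 5.55% held GCGNGGGCG. A match describes these letters only.

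The comparison of ΔE2 with FL asks whether RNA levels of these regulators differ with the form of FOXP3 in the cells. Id1 fell in ΔE2, and it was the 1 member of 7 to pass the test without a replicate block. The E protein genes were not uniform: Tcf3 and Tcf12 were lower and Tcf4 higher in ΔE2, while Id2 and Bhlhe40 were higher and Id3 overlapped between the groups. With the replicate number as a block, Id2 and Bhlhe40 rose and Id1, Tcf3 and Tcf12 fell. In all, 0 members were higher and 1 lower in the test without the block (edgeR quasi-likelihood test, Benjamini-Hochberg adjusted p under 0.05 over 14632 genes), where 3.75% of all tested genes were higher and 2.43% lower, 6.17% in all. At an unadjusted p under 0.05, 3 members were higher and 3 lower, against 11.7% and 10.8% of all genes. Of the other tools run without the block, DESeq2 and edgeR's likelihood ratio test each called 1 member higher and 1 lower, and limma-voom called 0 of either. With the block 2 members were higher and 3 lower, beside 11.5% and 10.1% of all genes (21.5% in all). In TMM-scaled CPM the FL and ΔE2 libraries of 6 of the 7 members did not overlap. Of these, 3 were higher in ΔE2 (13.6% of all tested genes) and 3 lower (13.5%), beside 27.1% of all genes for both directions. Per length and without TMM factors, Id2, Tcf4 and Bhlhe40 overlapped between the groups, while Id1, Tcf3 and Tcf12 stayed apart.

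**Figure D1:**
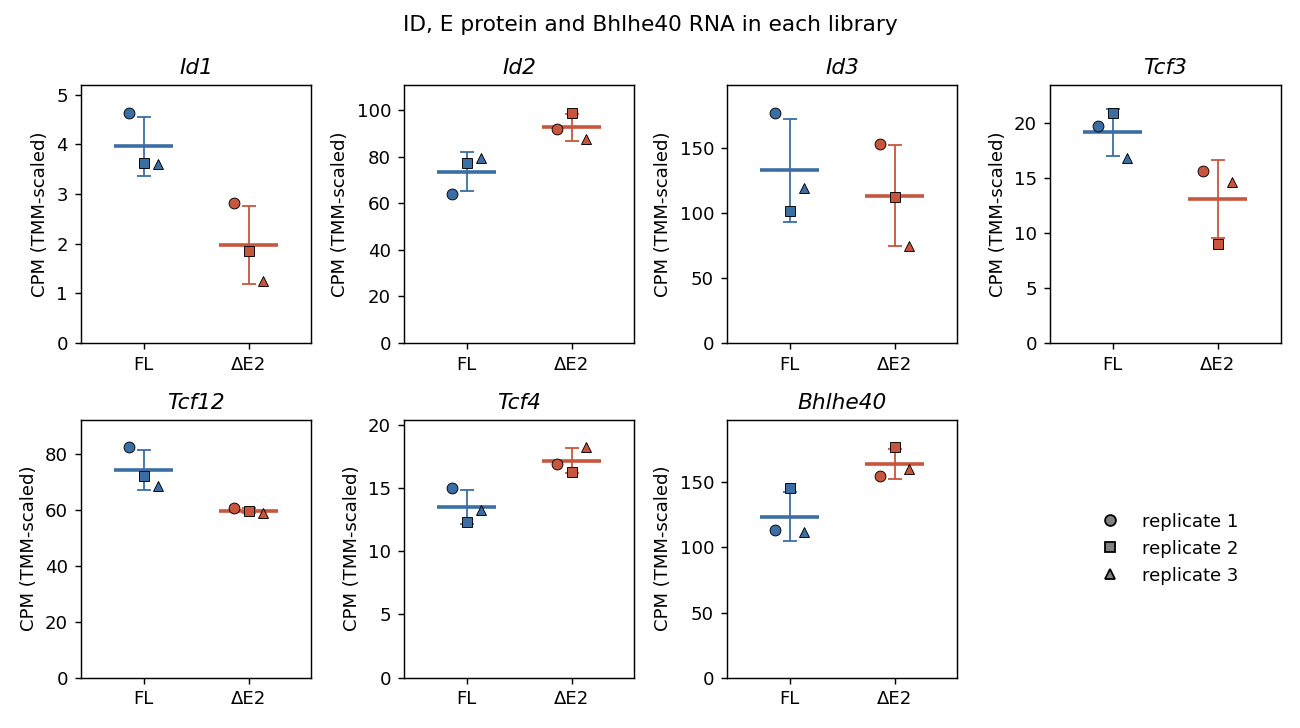
CPM (TMM-scaled, axis from 0) of each member in the 3 FL and 3 ΔE2 libraries. Symbols give the replicate number, the thick line the mean and the bars the SD (n = 3). Groups are apart in every panel but that of Id3, and Id1 goes from 3.96 to 1.97 CPM.

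Among the inhibitors, Id1 (mm10 chr2:152736251-152737410, plus strand) was the least abundant. The FL libraries, here and below in the order of their replicate numbers, had 4.64, 3.63 and 3.61 CPM and the ΔE2 libraries 2.81, 1.86 and 1.24, so that each ΔE2 library lay below each FL library. These values rest on 69, 61 and 51 reads in FL and 42, 24 and 18 in ΔE2. On the log2 scale Id1 differed by -0.998 with an SE of 0.28 (adjusted p = 0.039, edgeR) and a 95% interval of -1.58 to -0.41. In the authors' deposited table Id1 fell 2.00-fold with an FDR of 0.017, and it was the 1 member past both their FDR and their 1.5-fold threshold. The call depended on the libraries. It was lost without FL replicate 1 (-0.87, adjusted p = 0.16), FL replicate 2 (0.065), FL replicate 3 (0.074), ΔE2 replicate 2 (0.19) or ΔE2 replicate 3 (-0.75, 0.096), and with limma-voom (0.052). Without ΔE2 replicate 1, the highest of its group, the change was -1.36 (adjusted p = 0.0074), and with the replicate block it was -1.03 ± 0.24 (5.6e-04).

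Id2 (chr12:25093799-25097140, minus strand), the inhibitor associated with effector lymphocytes and innate lymphoid cells, stood at 63.9, 77.2 and 79.7 CPM in FL and at 91.8, 99.1 and 87.5 in ΔE2. All ΔE2 libraries were above all FL libraries. The log2 fold change of 0.33 ± 0.12 did not pass without the block (adjusted p = 0.097, 95% interval 0.085 to 0.58) and passed with the replicate block (0.34 ± 0.097, adjusted p = 0.0049). Per length and without a composition factor the groups met, at 71.2 to 91.9 TPM (length-scaled transcript abundance) in FL and 91.0 to 95.9 in ΔE2. For cells known for high Id2, the summed CPM of the 5 listed NK and innate lymphoid markers was 292 to 395 in FL and 419 to 508 in ΔE2, and that of the 4 CD8 markers 121 to 145 and 298 to 331. Most of the NK sum was Il18r1 (216 to 296 CPM in FL and 308 to 348 in ΔE2) and most of the CD8 sum in ΔE2 was Crtam (171 to 242 CPM), and both receptors are also expressed by activated CD4 cells. Besides these, Klrd1 and Cd8b1 did not overlap between the groups, while Klrb1c, at 0.416 to 3.61 CPM over the 6 libraries, Klrk1, Cd8a and Eomes, a gene of both lists, overlapped. Ncr1, another defining NK gene, was not listed. In ΔE2 replicate 1 Cd8a was at 99.2 CPM, against 14.9 to 33.9 in the other libraries, and the Id2 log2 fold change without that library was 0.34 (adjusted p = 0.11). The part of these cells in the Id2 values was not tested, and in bulk RNA fewer cells of a type and less RNA per cell cannot be told apart.

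Id3 (chr4:136143497-136145755, plus strand), the most abundant member per length, overlapped between the groups. Its CPM was 177, 102 and 119 in FL and 153, 112 and 75.0 in ΔE2. Replicate 1 was the highest in both groups. On the log2 scale the difference was -0.23 ± 0.35 (adjusted p = 0.77), with a 95% interval of -1.13 to 0.67, which leaves room for a change of more than 1.5-fold in either direction. With the block it was -0.24 ± 0.10 (adjusted p = 0.077). Within replicate numbers the log2 ratio of ΔE2 to FL was -0.21, 0.14 and -0.67, and the fitted value was 0.04 without FL replicate 1 (adjusted p = 0.97) and -0.51 without ΔE2 replicate 1 (0.38).

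Of the E protein genes, Tcf3 (chr10:80409514-80433647, minus strand) encodes E12 and E47 by splicing, which a gene count does not separate. It stood at 19.8, 20.9 and 16.8 CPM in FL and 15.6, 8.98 and 14.6 in ΔE2. The ΔE2 libraries lay below the FL libraries, and ΔE2 replicate 2 lay well below its own group. The log2 fold change was -0.55 ± 0.18 (adjusted p = 0.076; 95% interval -0.93 to -0.17) and passed with the replicate block (-0.57 ± 0.14, adjusted p = 0.0015). Leaving out ΔE2 replicate 2 moved it to -0.35 (adjusted p = 0.31), and leaving out ΔE2 replicate 1 to -0.69 (adjusted p = 0.026).

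Tcf12 (chr9:71842688-72111871, minus strand), whose product HEB is the other main E protein of thymocytes, had 82.5, 72.1 and 68.6 CPM in FL and 60.7, 59.8 and 59.1 in ΔE2. The ΔE2 values were close together and all below FL. A log2 fold change of -0.31 ± 0.12 did not pass without the block (adjusted p = 0.11) and passed with it (-0.31 ± 0.098, adjusted p = 0.013).

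Tcf4 (on chromosome 18), whose product E2-2 is best known from plasmacytoid dendritic cells and B cells, went the other way. Libraries of FL had 14.99, 12.3 and 13.2 CPM and those of ΔE2 16.9, 16.3 and 18.2, with each ΔE2 library above each FL library. Per length and without a composition factor the groups overlapped, at 1.24 to 1.49 TPM in FL and 1.40 to 1.70 in ΔE2. Its difference of 0.34 ± 0.15 on the log2 scale did not pass without the block (adjusted p = 0.16) or with it (0.34 ± 0.14, adjusted p = 0.056). The ratio of Tcf12 to Tcf4 CPM was 5.51, 5.86 and 5.18 in FL and 3.59, 3.68 and 3.25 in ΔE2, so that the groups were apart. The 5 listed B cell markers summed to 15.6 to 34.2 CPM in FL and 15.3 to 34.7 in ΔE2, about the same range in both groups, and Pax5, Cd22 and Blnk were not listed. Of 7 plasmacytoid dendritic markers 3 were listed. One of these, Irf8, which activated T cells also express, made up nearly all of their sum of 287 to 397 CPM in FL and 255 to 334 in ΔE2. Spib, another of them, lay at 0.178 to 1.47 CPM, and Siglech was not listed. Of the macrophage and dendritic markers 3 of 10 were listed (summed CPM 10.9 to 28.2 in FL and 15.95 to 50.6 in ΔE2). The highest sum was that of ΔE2 replicate 1, where Lyz2 stood at 14.65 CPM, against 0.178 to 2.32 in the other libraries. Of the stromal and red cell markers 3 of 9 were listed (199 to 251 in FL and 188 to 256 in ΔE2). Nearly all of that sum was Pecam1 (195 to 247 CPM in FL and 183 to 253 in ΔE2). The red cell genes Hba-a1 and Alas2 reached at most 2.02 and 5.18 CPM.

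Bhlhe40 (chr6:108660629-108666925, plus strand) stood at 114, 146 and 112 CPM in FL and 155, 177 and 160 in ΔE2. All ΔE2 libraries were above all FL libraries in CPM, and replicate 2 was the highest in both groups. Per length and without a composition factor the groups overlapped, at 65.6 to 85.3 TPM in FL and 79.5 to 88.8 in ΔE2. Its log2 fold change was 0.41 ± 0.13 (adjusted p = 0.057; 95% interval 0.14 to 0.67) and passed with the replicate block (0.42 ± 0.095, adjusted p = 3.1e-04). It also passed with DESeq2 (0.032), with the likelihood ratio test (0.043), without FL replicate 2 (0.54, 0.037) and without ΔE2 replicate 1 (0.45, 0.043). The authors' deposited table gives an FDR of 0.041 and a 1.33-fold increase, below their 1.5-fold threshold. An antisense gene, 0610040F04Rik, shares 118 of the exon bases of Bhlhe40 in GENCODE M21 (2.51%), and the labels do not say whether counting used strand. The other 6 members share no exon base with another annotated gene.

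**Figure D2:**
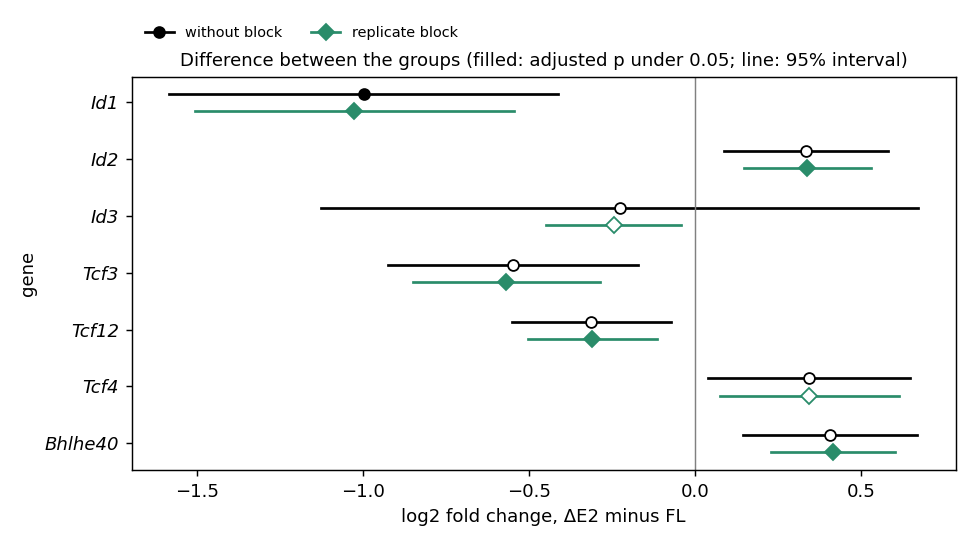
Log2 fold change (ΔE2 minus FL) of each member without a block (circles) and with the replicate number as a block (diamonds), with 95% intervals. Filled symbols passed at an adjusted p under 0.05, which is 1 of 7 circles and 5 of 7 diamonds.

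Levels of different genes were compared per length, as TPM from the deposited exon lengths. In FL the order was Id3 (204 ± 58.1 TPM), Id2 (83.4 ± 10.9), Bhlhe40 (72.5 ± 11.1), Tcf12 (13.2 ± 1.07), Tcf3 (13.1 ± 1.32), Id1 (9.41 ± 1.25) and Tcf4 (1.36 ± 0.12; SD, n = 3). The FL ranges of Id2 and Bhlhe40 overlapped, as did those of Tcf12 and Tcf3, and the other neighbours were apart. The order of the means was the same in ΔE2, at 154 ± 50.1 TPM for Id3, 93.0 ± 2.62 for Id2, 85.2 ± 4.96 for Bhlhe40, 9.43 ± 0.33 for Tcf12, 7.95 ± 2.34 for Tcf3, 4.13 ± 1.59 for Id1 and 1.53 ± 0.15 for Tcf4. There the ranges of Tcf12 and Tcf3 overlapped, as did those of Tcf3 and Id1, while Id2 and Bhlhe40 were apart. The counted length joins all annotated exons (27382 bases for Tcf4, 15529 for Tcf12 and 1160 for Id1), so a gene with long alternative exons gets a low value per length.

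Summed over the 3 E protein genes, the level was 29.2, 28.3 and 25.4 TPM in FL and 20.3, 15.7 and 20.7 in ΔE2, and no ΔE2 library reached the FL range. With TMM scaling, as CPM per kilobase, the sums were 10.8, 10.3 and 9.05 in FL and 8.39, 6.67 and 8.09 in ΔE2, which also do not overlap. Tcf4 made up 4.93% ± 0.50 of the E protein sum in FL and 8.16% ± 0.77 in ΔE2. The ID sum was 351, 252 and 288 TPM in FL and 304, 247 and 202 in ΔE2, with overlapping groups, and Id3 held 53.1% to 76.6% of it in the 6 libraries. Id1 was 3.18% ± 0.20 of that sum in FL and 1.605% ± 0.29 in ΔE2. The ratio of the ID sum to the E protein sum was 12.02, 8.92 and 11.3 in FL and 14.97, 15.7 and 9.74 in ΔE2. It was higher in ΔE2 replicates 1 and 2 than in any FL library, while ΔE2 replicate 3, in which Id3 was lowest, lay within the FL range. These sums are given without a test.

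**Figure D3:**
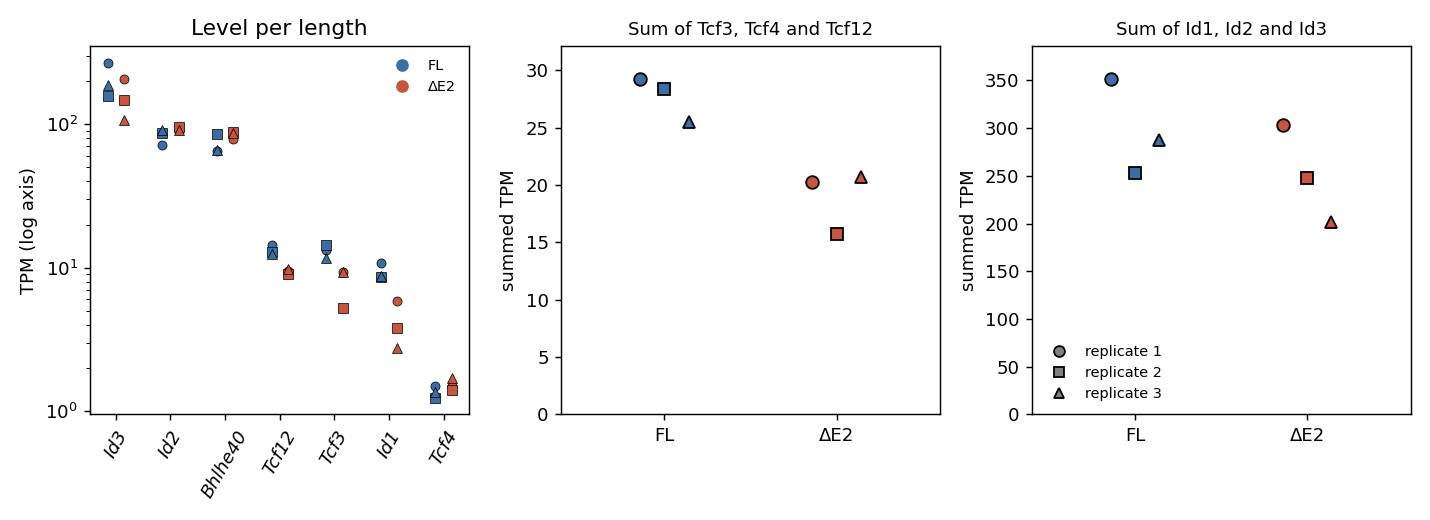
Left: TPM of each member per library on a log axis, in order of the FL mean. Middle and right: summed TPM of the 3 E protein genes and of the 3 ID genes per library, axes from 0. E protein sums are 25.4 to 29.2 in FL and 15.7 to 20.7 in ΔE2, and the ID sums overlap.

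The pattern over the 6 libraries was compared between genes by the root mean square difference of log2 CPM profiles, each centred on its mean. A profile holds the step between the groups, so the direction of the nearest genes follows from how they were picked. Their p-values are therefore no separate evidence. Closest to Id1, among 9389 genes with a mean CPM of at least 5, were Hepacam2 (difference 0.098), Snrk (0.14) and Pdcd4 (0.17), which fell with log2 fold changes of -0.96, -0.75 and -0.72 (adjusted p = 0.0090, 0.041 and 0.041). Closest to Bhlhe40, among 9388, were Zfp51 (0.036), Aimp2 (0.060) and Gimap5 (0.060), with log2 fold changes of 0.40, 0.38 and 0.41 that, like that of Bhlhe40, did not pass (0.13, 0.064 and 0.069).

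Other genes of the pathway were described from 4 lists, chosen with earlier results of these data known, so the counts below are descriptive only. Of all tested genes 3.75% were higher and 2.43% lower without the block, and 11.5% and 10.1% with it. At an unadjusted p under 0.05 the shares were 11.7% and 10.8%. Of the ID and E protein partners and other helix-loop-helix factors, 10 of 21 genes were tested, of which 0 rose, 3 fell and 7 did not pass. Ldb1, an adaptor of LIM-domain complexes that contain E proteins, went from 70.4, 54.6 and 56.3 CPM in FL to 46.5, 31.4 and 38.7 in ΔE2 (log2 fold change -0.64 ± 0.14, adjusted p = 0.013). Kat2b, the acetyltransferase PCAF, had a significant log2 fold change of -0.46 ± 0.12 (adjusted p = 0.024), and Hes6, a helix-loop-helix factor of the HES family, one of -0.70 ± 0.20 (0.039). Usf2 (-0.52, adjusted p = 0.074), Tfap4 (-0.70, 0.10) and Ep300 (-0.27, 0.17) did not pass. Over the list the median was -0.38 (log2 fold change), against -0.0043 over all genes tested. At an unadjusted p under 0.05, 0 were higher and 6 lower, and with the replicate block 0 rose and 6 fell, Usf2 (adjusted p = 0.0034), Tfap4 (0.022) and Ep300 (0.035) among them. DESeq2, limma-voom and the likelihood ratio test called 0 higher and 3, 2 and 3 lower. Without FL replicate 1 the adjusted p was 0.068 for Ldb1, 0.15 for Kat2b and 0.12 for Hes6, and without ΔE2 replicate 2 it was 0.10, 0.11 and 0.21. Hes6 was also lost without FL replicates 2 (0.079) and 3 (0.12), Kat2b without FL replicate 3 (0.068) and Ldb1 without ΔE2 replicate 3 (0.055).

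Genes linked to E proteins in T cells moved in both directions. Of 17 tested genes 4 rose, 5 fell and 8 did not pass, where 3.75% of all tested genes rose and 2.43% fell. The median log2 fold change was -0.0069, which is that of Foxp3 itself, a gene of the list. Those that rose were the IL-7 receptor gene Il7r (65.5 ± 8.89 to 102 ± 2.49 CPM, adjusted p = 0.0033), the cell cycle inhibitor gene Cdkn1a (50.4 ± 2.82 to 78.0 ± 10.6, 0.0043), the chemokine receptor gene Ccr7 (924 ± 73.2 to 1389 ± 166, 0.016) and the kinase gene Cdk6 (245 ± 21.2 to 343 ± 11.6, 0.022). Those that fell were Gata3 (42.4 ± 4.18 to 26.6 ± 3.21, 0.0038), a regulator of type 2 T helper cells, the cytokine feedback genes Socs1 (21.5 ± 3.63 to 12.6 ± 1.99, 0.0072) and Socs3 (36.2 ± 4.01 to 25.5 ± 3.61, 0.030), Foxo1 (124 ± 17.7 to 90.1 ± 6.24, 0.031) and the T lineage factor gene Bcl11b (144 ± 19.6 to 107 ± 4.21, 0.039). Notch1 (log2 fold change 0.24, adjusted p = 0.24) and Gfi1 (0.42, 0.28) did not pass. Without ΔE2 replicate 2 the calls of Socs1 (0.072), Ccr7 (0.12), Cdk6 (0.0998), Socs3 (0.18), Foxo1 (0.15) and Bcl11b (0.18) were lost. Leaving out FL replicate 1 lost Socs1 (0.055), Cdk6 (0.15), Socs3 (0.16), Foxo1 (0.21) and Bcl11b (0.26). Further calls lost were, without FL replicate 2, those of Ccr7 (0.086), Cdk6 (0.051), Socs3 (0.066), Foxo1 (0.061) and Bcl11b (0.083), without FL replicate 3 that of Cdk6 (0.067), and without ΔE2 replicate 3 those of Foxo1 (0.061) and Bcl11b (0.057).

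Among inputs to the ID genes, Egr2, an early T cell receptor factor, was the 1 of 22 that rose and 0 fell. Egr2 stood at 51.1, 63.9 and 56.3 CPM in FL and 99.7, 119 and 86.8 in ΔE2 (log2 fold change 0.83 ± 0.13, adjusted p = 6.0e-04). The receptor and SMAD genes of the BMP and TGF-beta pathways did not pass without the block, nor did the other inputs. Smad4, the common mediator of the pathway, differed by -0.44 ± 0.13 on the log2 scale (adjusted p = 0.051), the pseudoreceptor gene Bambi by 0.74 ± 0.22 (0.052) and Klf2, a quiescence factor gene, by -0.58 ± 0.19 (0.089). At an unadjusted p under 0.05, 2 inputs were higher and 6 lower. DESeq2 called 1 higher and 3 lower, limma-voom 1 and 0, and the likelihood ratio test 2 and 2. With the replicate block 2 rose and 7 fell, where 11.5% of all tested genes rose and 10.1% fell. Among the inputs called were Smad4 (adjusted p = 7.8e-04), Klf2 (1.6e-05) and Bambi (0.0038). Smad4 (0.022), Klf2 (0.015) and Bambi (0.049) also passed without ΔE2 replicate 1, Klf2 without FL replicate 3 (0.038) and Bambi without ΔE2 replicate 3 (0.040). The median of the list was -0.098.

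Of 18 tested genes linked to Bhlhe40, 4 rose, 0 fell and 14 did not pass, where 3.75% of all tested genes rose and 2.43% fell. This list, like the others, was drawn up with earlier results of these data known. The 4 were Ifng (interferon gamma, log2 fold change 2.34 ± 0.16), Il10 (2.38 ± 0.39), the inhibitory receptor gene Pdcd1 (0.96 ± 0.13) and the activation marker gene Cd69 (0.84 ± 0.17), with adjusted p of 1.6e-08 to 0.0088. Il10, which Bhlhe40 is known to repress in mouse T helper cells, was low, at 1.01, 0.416 and 0.849 CPM in FL and 5.75, 2.09 and 3.86 in ΔE2. Csf2, which encodes GM-CSF and which Bhlhe40 is known to promote in mouse T cells, had 24.0 ± 9.24 CPM in FL and 68.7 ± 11.7 in ΔE2. That log2 fold change, 1.52 ± 0.33, did not pass without the block (adjusted p = 0.064) and passed with it (2.2e-06), with DESeq2 (0.0016), with limma-voom (0.0019), with the likelihood ratio test (4.6e-04), with the stricter filter (0.048), without FL replicate 1 (7.3e-06) and without FL replicate 3 (0.035). The clock genes Cry1 (-0.44, adjusted p = 0.088) and Nr1d2 (-0.55, 0.10) did not pass without the block and fell with it (0.014 and 0.021). At an unadjusted p under 0.05, 5 of the list were higher and 2 lower, and the list's median was 0.037. Limma-voom called 5 higher and 0 lower, DESeq2 and the likelihood ratio test also 5 and 0. Cd69 was lost without ΔE2 replicate 2 (0.084) or ΔE2 replicate 3 (0.059).

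**Figure D4:**
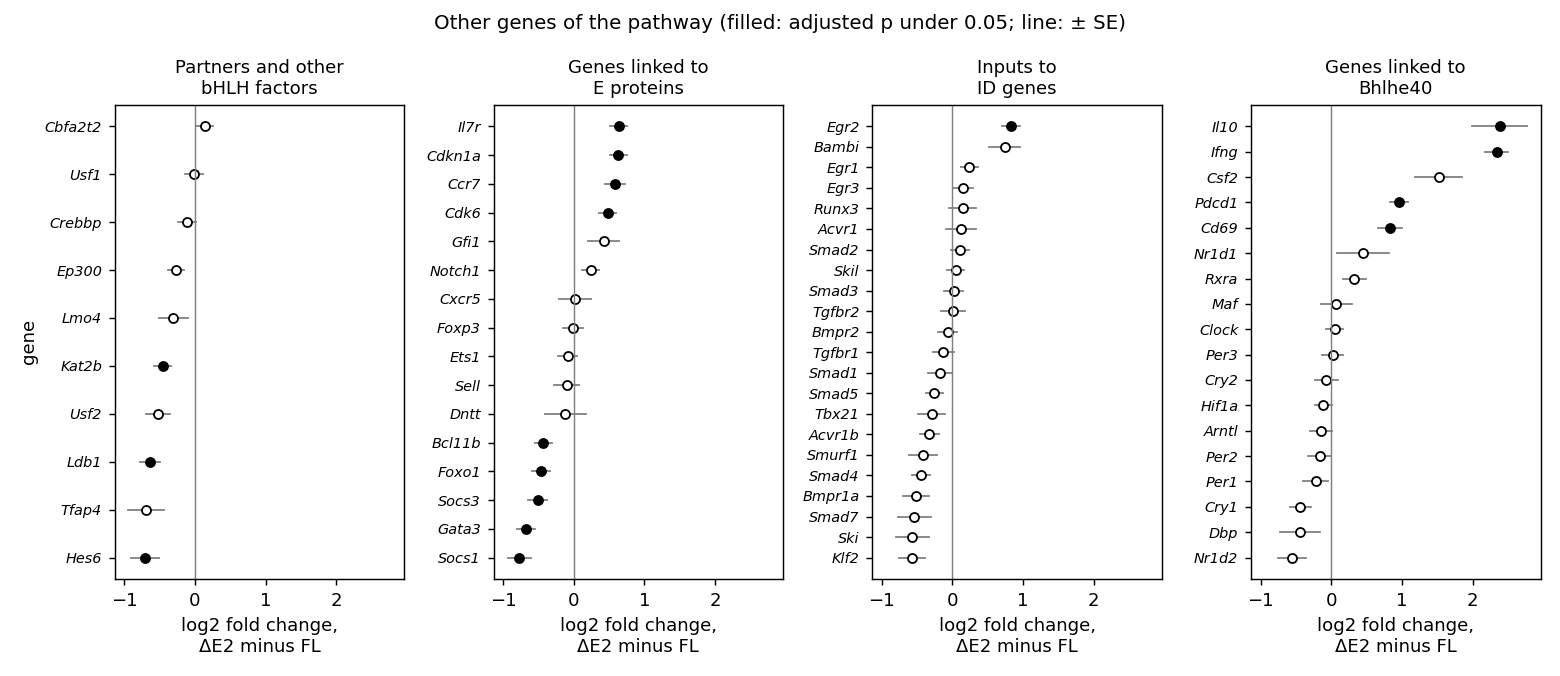
Log2 fold change (ΔE2 minus FL) of the tested genes of the 4 lists, with SE; 1 gene that did not pass is not drawn. Filled symbols passed at an adjusted p under 0.05: 0 higher and 3 lower among the partners, 4 and 5 among genes linked to E proteins, 1 and 0 among inputs to the ID genes, and 4 and 0 among genes linked to Bhlhe40.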

How the data were processed

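Polyadenylated RNA of 6 libraries (3 FL, 3 ΔE2, grouped by the labels) was sequenced. The submitters' processing notes list mm10, STAR 2.5, bcl2fastq, edgeR 3.20.8 and featureCounts (Subread 1.5.1), with no settings. The authors deposited raw counts per gene and, per the file headers, log2 CPM values and their own comparison with a log2 fold change, p-value and FDR. Here the counts were filtered with filterByExpr (14632 of 14777 genes kept), scaled with TMM and tested in R 4.3.3 with edgeR 4.0.16: robust glmQLFit and a two-sided glmQLFTest of the group, Benjamini-Hochberg adjusted over the tested genes, threshold 0.05. SE is the absolute log2 fold change divided by the square root of F. With 3 libraries a group, exact permutation reaches p = 0.1 at best and was not used. Profiles used log2(CPM + 0.5).

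Deviations from the group means correlated at 0.43, 0.23 and 0.22 between libraries of one replicate number and at -0.31 to 0.099 otherwise. All same-number pairs passed 0.1, with the highest other pair close to it at 0.099. The main test has no block, since what a number shares is not in the labels. The number served as a block only in an alternative fit. The block took the biological coefficient of variation from 13.1% to 9.20%. The p-values and intervals of both edgeR fits, without and with the block, draw on the dispersion of all genes. For the members the block fit uses 73.5 to 293 degrees of freedom, far more than the libraries alone give. Replicates differed beyond sampling noise. Alternatives used other scalings, filters and left-out libraries, DESeq2 1.42.0 and limma 3.58.1 (voom). Scripts were tested on simulated data. Genes named are the members, Foxp3, the genes of each list that passed with up to 3 that did not, and the 3 nearest to each of the 2 members with the smallest p. Members and lists were chosen with earlier results of these data known. The single marker genes given with values were chosen after their values were seen. Of the list genes, 1 is not reported here.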

Additional observations from a re-analysis of the deposited data

How the results depend on the processing

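Directions of the 7 members held under every scaling, filter and tool run, with and without the block. One direction turned when a library was left out: Id3 ranged from -0.51 to 0.04 (0.0379 without FL replicate 1). Foxp3, whose groups overlap, also turned without FL replicate 1 (0.094) and without ΔE2 replicate 3 (0.088) and ranged down to -0.11. Calls of single members moved most with the replicate block, where Id2 (0.34), Tcf3 (-0.57), Tcf12 (-0.31) and Bhlhe40 (0.42) passed. Members called were then 2 higher and 3 lower, and those of all genes 1678 and 1471. In the lists the block gave 6 lower partners, 2 higher and 7 lower inputs and 2 lower genes linked to Bhlhe40, and it changed no other count of calls by over 1.5 times. Without a composition factor the median log2 fold change of all genes was -0.14. Tcf3 (-0.68) and Tcf12 (-0.45) passed there, which made 3 members lower, and 264 of all genes were higher and 954 lower, with 5 lower partners, 2 lower inputs and 2 lower genes linked to Bhlhe40. Relative to that median Tcf3 and Tcf12 stood close to their TMM values. Limma-voom left Id1 short (-1.05; 0 members lower), with 227 of all genes lower and 2 lower genes linked to E proteins. DESeq2 (0.41) and the likelihood ratio test (0.41) called Bhlhe40, so 1 member was higher. DESeq2 had 3 lower inputs, the likelihood ratio test 2 higher and 2 lower, and upper quartile scaling 1 lower. With CPM of at least 5 in 3 libraries Id1 was not tested and 0 members were lower. Without length the ratio of ID to E protein CPM was 1.96 in FL and 2.31 in ΔE2.

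Leaving out 1 library at a time gave log2 fold changes of -1.36 to -0.75 for Id1, -0.69 to -0.35 for Tcf3 and 0.34 to 0.54 for Bhlhe40. Members higher were 0 to 1 and lower 0 to 2. Over all genes, 125 (without ΔE2 replicate 2) to 780 (without ΔE2 replicate 1) were higher and 51 to 587 lower, at those same libraries. List counts were 0 to 3 lower partners, 2 to 4 higher and 1 to 5 lower genes linked to E proteins, and 1 to 2 higher and 0 to 5 lower inputs. The cause of these differences was not tested. Depth limits Id1, with 18 to 69 reads a library, and Il10. Gene counts do not resolve the splice forms of Tcf3, Tcf4 or Foxp3.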
